A study of Mus musculus with 18 samples.

Results

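The levels of 9 receptor tyrosine kinase genes were followed in mRNA and in ribosome-protected fragments (RPFs) in mouse embryos at E11.5: the PDGF receptor genes Pdgfra and Pdgfrb, Kit, Csf1r, the VEGF receptor genes Flt1, Kdr and Flt4, and the angiopoietin receptor family genes Tek and Tie1. They were chosen by name, and all 9 were paired by the study's list of signalling components with an identifier in both deposited tables, which hold 12064 genes for the mesoderm and 11231 genes for neural tube (NT) together with forelimb bud tissue (FL). Mesoderm cells were the GFP+ cells sorted from trypsin-dissociated embryos that carried R26-mTmGflox/+ together with the transgene Tg(T-cre)1LWD/J/+, in which T-Cre switches on membrane GFP in descendants of the primitive streak, so the sort can hold any cell type of that descent. NT and FL were microdissected from the same FVB embryos without sorting, the NT freed of somites with a needle, and hold whatever vessels and blood cells came with them. Every sample was handled in cycloheximide, which holds ribosomes on mRNA, and each of the 3 tissues has 3 RNA-Seq and 3 Ribo-Seq libraries, named here by their replicate number. The study calls its replicates biological, and how many embryos each one pooled is not given in the sources used here.

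Receptor tyrosine kinases span the cell membrane, bind a ligand outside the cell and, once paired, phosphorylate themselves and the adaptors that start the RAS-MAPK and PI3K cascades. Pdgfra and Pdgfrb bind the platelet-derived growth factors, and are known for mesenchymal cells and for pericytes and other cells around vessels. Kit binds stem cell factor and serves blood progenitors, melanoblasts and germ cells, and Csf1r binds CSF1 and IL-34 and is the defining receptor of macrophages. Flt1, Kdr and Flt4 encode VEGF receptors 1, 2 and 3, and Tek and Tie1 encode TIE2 and its partner TIE1. The last 5 are classical genes of the vascular and lymphatic endothelium. Translational efficiency (TE) is given as log2 of Ribo-Seq over RNA-Seq normalized reads, each plus 1, centred on the median of all genes of the tissue, so that 0 is the median gene.

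In the GENCODE annotation of GRCm38, Pdgfra (chr5:75152292-75198215, plus strand), Kit (chr5:75574916-75656722, plus strand) and Kdr (chr5:75932827-75978458, minus strand) follow each other on chromosome 5. No coding gene is annotated in the 376.7 kb between Pdgfra and Kit or in the 276.1 kb between Kit and Kdr. Flt1 lies on the same chromosome (chr5:147561604-147726011, minus strand), Flt4 at chr11:49609263-49652739 (plus strand), and Tek (chr4:94739289-94874976, plus strand) and Tie1 (chr4:118471191-118490061, minus strand) on chromosome 4. The bases around the annotated start codon are shown because TE depends on how often ribosomes start there, with the start codon in capitals, 6 bases of the leader before it and 12 coding bases after it.
Pdgfra: ggagctATGgggacctcccac
Kit: accgcgATGagaggcgctcgc
Flt1: ctcaccATGgtcagctgctgg
Kdr: tgcaggATGgagagcaaggcg
Flt4: ccggagATGcagccgggcgct
Tek: ggaagtATGgactctttagcc
Tie1: cagagtATGgtctggtgggga
All 7 have A or G as the third base before the ATG, which 84.0% of 20226 annotated coding genes also have. With a G right after the ATG as well, the context usually called strong, 5 of the 7 remain, Kit and Flt4 being the others, against 41.1% of coding genes. The isoforms of the annotation can differ from those the authors counted on.

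Pdgfrb and Csf1r are also neighbours, 15.5 kb apart. The annotated leaders of the 9 genes ran from 97 nt in Kit to 507 nt in Flt4, beside a median of 168 nt over coding genes. An ATG upstream of the start codon, found in 54.3% of coding genes, was absent from the leaders of Kit, Flt1 and Kdr. The leaders of Pdgfra, Pdgfrb and Csf1r held 1, that of Tie1 held 4, and those of Flt4 and Tek held 6 each. Coding sequences were long, from 2934 nt in Csf1r to 4092 nt in Flt4, against a median of 1182 nt.

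Depth on the genes of the tables was 24555103 to 50136443 reads in the RNA-Seq libraries and 11000015 to 31993255 in the Ribo-Seq libraries, and the members held between 69 and 20608 reads in a library. The tissue labels were checked against marker genes: 6 of 6 neural markers had more mRNA in NT, and 3 of 4 limb bud mesenchyme markers had more in FL. Markers of endothelium (6 of 7 found) and macrophages (11 of 12 found in the mesoderm table, 6 in the NT and FL table) were above 0 in every library. The third Ribo-Seq library of FL stood apart: Pearson's r of log2(normalized reads + 1) over genes was 0.886 and 0.896 with libraries 1 and 2, which had r = 0.976 with each other. The third NT Ribo-Seq library had r = 0.933 and 0.934 against 0.989. In FL, 7 of the 9 receptors had more RPFs in library 3 than in both other libraries, as did 43.0% of all genes, and Csf1r had fewer than both, as did 46.3%. Across 151 signalling genes of these libraries, log2 of FL library 3 over the mean of libraries 1 and 2 had a Spearman correlation of 0.663 with the length of the coding sequence, and -0.204 for the corresponding NT libraries. The part of length in the FL results was not tested. For the receptors, FL values without replicate 3 are given below where a call was gained or lost, and for some other values that moved. Symbols for the markers come mostly from tables of genes that the study called on these samples. Neither the share of markers called nor their median difference is therefore independent evidence of their direction.

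The PDGF receptors were by far the most abundant of the 9 mRNAs in both mesenchymal samples, and Kit led in NT. Levels were compared per kilobase (kb) of coding sequence, without the codons left out of counting, as normalized reads per kb. In the mesoderm, Pdgfra mRNA averaged 3210 ± 152 normalized reads per kb (SD, n = 3) and Pdgfrb 2119 ± 455, and neither overlapped its neighbour in the order. Csf1r (304 ± 53.6), Tie1 (304 ± 157), Kit (291 ± 9.67), Kdr (221 ± 71.7), Flt4 (103 ± 59.0) and Tek (76.7 ± 9.96) came next, each overlapping the gene after it except Tek, which stood above Flt1 (52.2 ± 14.1). In FL the same pair led, Pdgfra with 4591 ± 442 and Pdgfrb with 1342 ± 95.8, and the other receptors lay between 91.6 and 425. In NT, Kit came first with 714 ± 55.3 normalized reads per kb, above Tie1 (473 ± 69.9) and Kdr (426 ± 60.3), which overlapped, while Pdgfrb had 322 ± 32.3 and Pdgfra 206 ± 60.2. Csf1r followed with 184 ± 25.9. Tek, Flt1 and Flt4, at 102 to 107 normalized reads per kb, overlapped each other and were last. The tables were normalized separately, so mesoderm levels are not set against those of NT or FL.

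**Figure D1:**
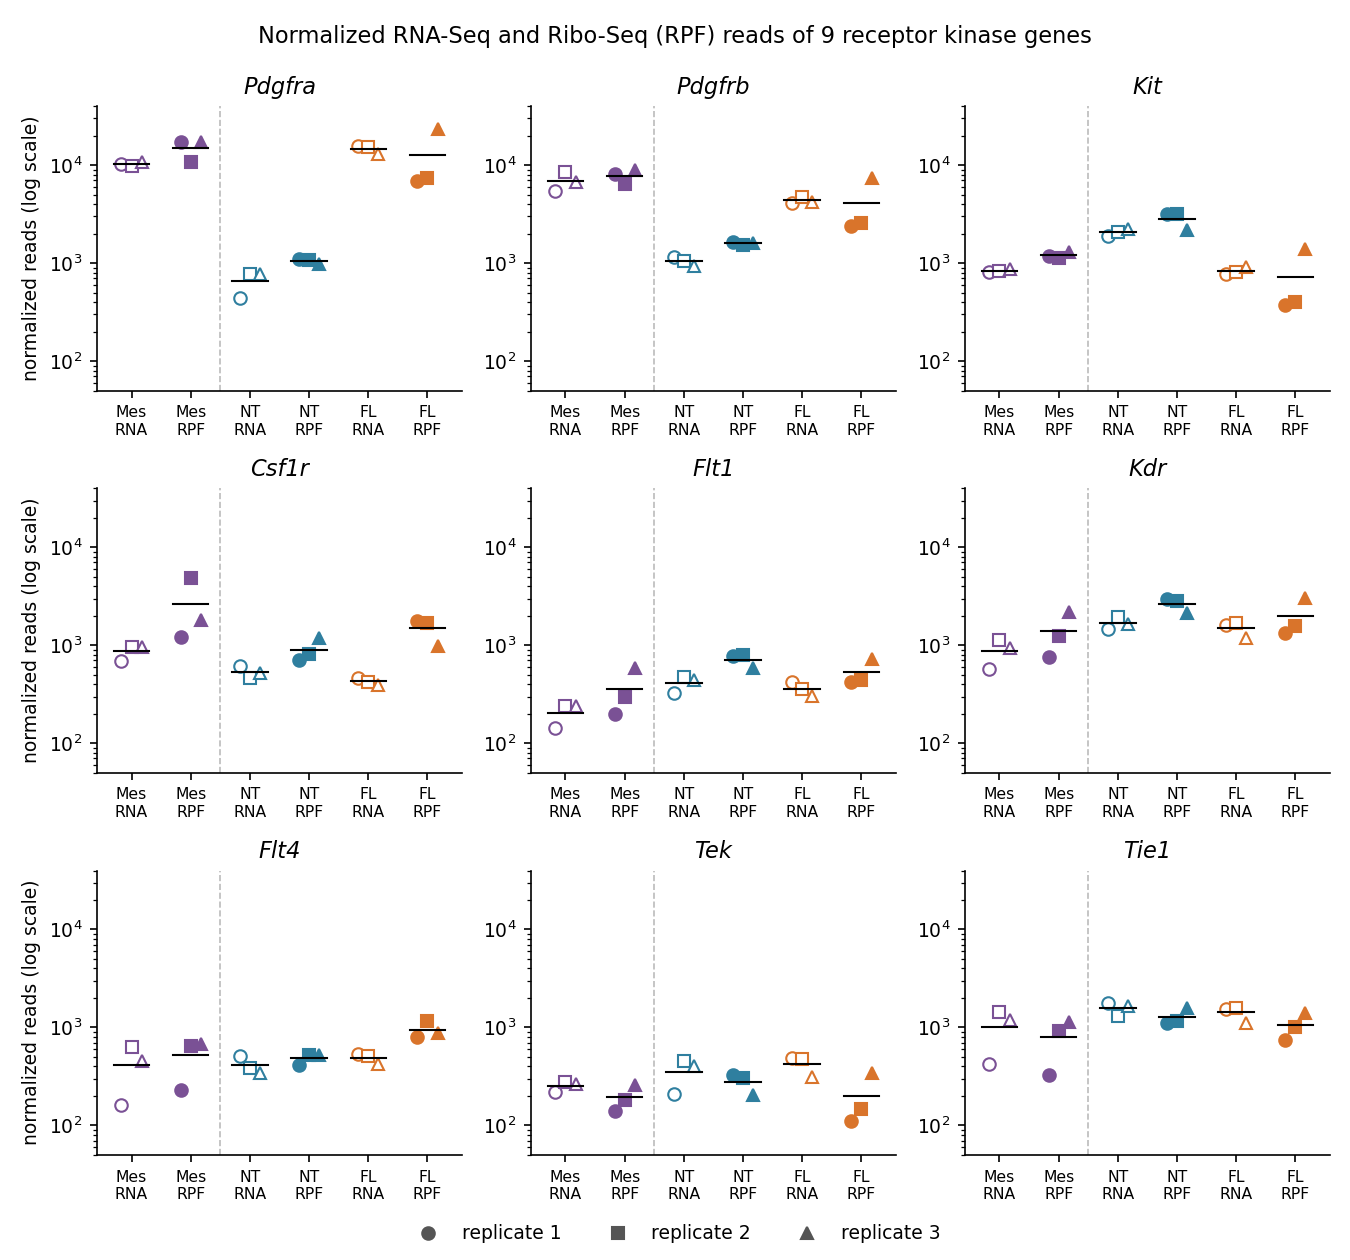
Normalized reads on a log scale for each of the 9 genes in the mesoderm (Mes), NT and FL. Open symbols are RNA-Seq and filled symbols Ribo-Seq (RPF), shapes mark the replicate, bars are means, and the dashed line separates tables that were normalized separately. Pdgfra and Pdgfrb are highest in the mesoderm and in FL, and the third FL Ribo-Seq library lies apart from the others for Pdgfra, Pdgfrb and Kit.

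FL and NT were compared to ask which receptors differ between a limb bud and the neural tube, and at which level. Of the 9, 3 differed in mRNA (limma, Benjamini-Hochberg adjusted p under 0.05 and at least 2-fold). Pdgfra and Pdgfrb were higher in FL, where 7.82% of all genes were called, and Kit was higher in NT, where 9.49% were. Without the size threshold the members called were the same 3, against 10.3% and 12.3% of genes. In bulk tissue, fewer cells of a type and less RNA per cell cannot be told apart.

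Pdgfra, the receptor of mesenchymal progenitors, had 438, 774 and 773 normalized RNA-Seq reads in NT and 15675, 15433 and 13108 in FL. Its RPFs were 1095, 1065 and 970 in NT, against 6897, 7313 and 23601 in FL. No FL library overlapped an NT library in either measure, as was so for 23.3% of all genes in mRNA and 21.5% in RPFs. The difference was 4.52 ± 0.39 on the log2 scale in mRNA (SE, 22.9-fold, adjusted p = 1.35e-06) and 3.35 ± 0.39 in RPFs (10.2-fold, adjusted p = 1.68e-05). Without the third FL replicate the RPF difference was 2.77.

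Pdgfrb, the receptor of pericytes and other mural cells, had 1147, 1055 and 938 normalized RNA-Seq reads in NT against 4131, 4719 and 4246 in FL. The RPFs were 1656, 1539 and 1590 in NT, against 2375, 2581 and 7311 in FL, so the groups again did not overlap. The difference in mRNA was 2.06 ± 0.33 (4.17-fold, adjusted p = 0.00038). In RPFs it was 1.16 ± 0.33 (2.23-fold, adjusted p = 0.0134), a call that was lost when either of 2 replicates was left out. The difference fell to 0.63, under 2-fold, without FL replicate 3. Without NT replicate 2 it was 1.13, with an adjusted p of 0.0598. The pericyte marker Cspg4, the only one of 2 found in this table, moved with it, with 238 to 446 normalized RNA-Seq reads in NT and 1502 to 2052 in FL. Its RPFs were not called, and its part in the Pdgfrb result was not tested.

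Kit went the other way. Its mRNA had 1893, 2067 and 2211 normalized reads in NT and 768, 813 and 902 in FL. The RPFs were 3199, 3177 and 2176 in NT, against 372, 399 and 1403 in FL. Both measures kept the groups apart, as they did for 24.1% of all genes higher in NT in mRNA and 21.1% in RPFs. The FL minus NT difference was -1.31 ± 0.39 in mRNA (2.48-fold lower in FL, adjusted p = 0.0277) and -2.24 ± 0.39 in RPFs (4.73-fold lower, adjusted p = 0.00058). The RPF difference was -2.86 without FL replicate 3 and -3.05 without the third Ribo-Seq library of both tissues. The mRNA call was lost, at adjusted p of 0.0676 to 0.0951, without NT replicate 1, 2 or 3 or FL replicate 1 or 2, whereas the log2 difference stayed between -1.38 and -1.26. Without FL replicate 3 its adjusted p was 0.000306. Without the third Ribo-Seq library of both tissues the mRNA difference was still -1.31, with an adjusted p of 2.72e-06 (limma). The limma fit takes 1 spread per gene over RNA-Seq and Ribo-Seq libraries together, so the spread of Kit RPFs also enters the p of its mRNA.

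With all libraries, none of the 5 vascular receptors passed the call of limma in either measure. Their log2 differences in mRNA lay between -0.20 for Flt1 and 0.31 for Tek, with SE of 0.23 to 0.42. Kdr, the main signalling receptor for VEGF-A, had 1475, 1950 and 1653 normalized RNA-Seq reads in NT and 1592, 1695 and 1178 in FL, with overlap between the tissues. Flt4, the receptor for VEGF-C, was the only one of the 5 whose RPFs did not overlap between the tissues and differed at adjusted p under 0.05. NT held 418, 529 and 525 and FL held 795, 1170 and 876, a log2 difference of 0.94 ± 0.23 (adjusted p = 0.00638), under 2-fold. Of all genes, 21.5% were likewise apart with more RPFs in FL, and 22.6% passed that adjusted p with more in FL. Without FL replicate 1 the Flt4 difference was 1.05 (adjusted p = 0.0154) and called, and without FL replicate 2 its adjusted p was 0.0632. Tek went the other way, with a difference of -0.61 ± 0.42 (adjusted p = 0.242) that was -1.09 (adjusted p = 0.0188) and called without FL replicate 3. The RPF difference of Kdr was -0.51 ± 0.29 (adjusted p = 0.158), and -0.86 (adjusted p = 0.00292), under 2-fold, without FL replicate 3. Without the third Ribo-Seq library of both tissues, Tek (-1.30), Kdr (-1.003) and Flt4 (1.03) were all called. Of the endothelial markers, 0 of 6 were called in mRNA (limma), with a median of -0.17 where Flt4 had 0.26. In RPFs 3 of 6 were called higher in FL, with a median of 0.79 and a range from -0.37 to 1.13. The RPF differences of Flt1, Kdr, Tek and Tie1 were negative, and the part of the markers in the Flt4 result was not tested.

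Csf1r, the macrophage receptor gene, had 608, 461 and 517 normalized RNA-Seq reads in NT and 467, 426 and 391 in FL, overlapping between the tissues. Its RPFs were 703, 820 and 1181 in NT, against 1786, 1705 and 990 in FL. They overlapped as well, since NT library 3 lay above FL library 3, while libraries 1 and 2 of FL were above every NT library. The log2 difference was -0.30 ± 0.27 in mRNA (adjusted p = 0.519) and 0.71 ± 0.27 in RPFs (1.64-fold, adjusted p = 0.0437). The RPF value was 0.99, under 2-fold, without FL replicate 3. Its adjusted p was 0.141 to 0.199 without NT replicate 1 or 2 or FL replicate 1 or 2. The Csf1r RPF difference was 1.199 and called (limma, adjusted p = 0.000128) without the third Ribo-Seq library of both tissues. That setting was chosen after seeing the data. Macrophage markers moved with Csf1r, with a median difference of -0.51 in mRNA and 0.98 in RPFs over the 6 found. Of these, 3 were called higher in FL in RPFs. The naming by the study's calls can shift these values, and the part of the markers in the Csf1r result was not tested. Counting any size of change, 4 of 9 receptors had more RPFs in FL and 1 had fewer, where 22.6% and 22.7% of all genes did. With the 2-fold threshold it was 2 and 1, against 14.9% and 17.8%.

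**Figure D2:**
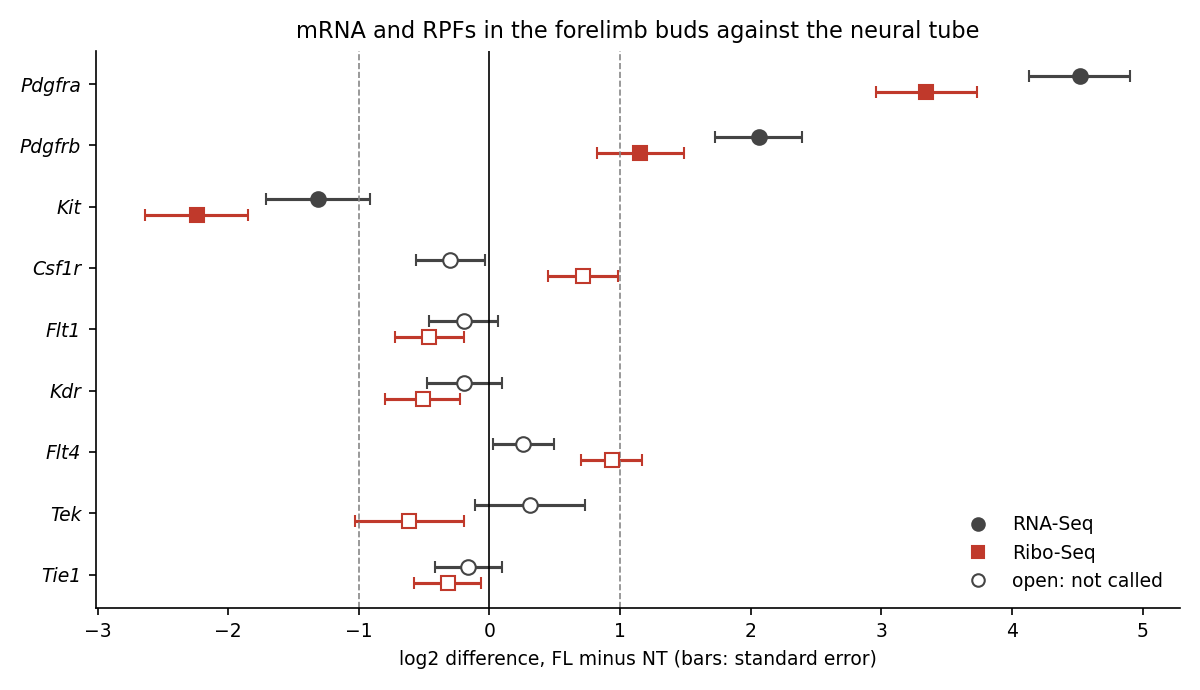
Log2 difference of FL minus NT in RNA-Seq (circles) and Ribo-Seq (squares) for each gene, with standard errors, from limma on the 12 NT and FL libraries. Filled symbols passed the adjusted p of 0.05 and the 2-fold threshold (dashed lines). Pdgfra and Pdgfrb lie to the right and Kit to the left in both measures, and the RPF difference of each of these 3 lies about 1 log2 unit to the left of its mRNA difference.

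In the mesoderm, none of the 9 receptors was TE-low or TE-high, that is at least 3-fold from the median at an adjusted p under 0.05 (limma), as 10.9% and 1.17% of all genes were. edgeR and DESeq2 on whole reads also called 0 in either direction. At an unadjusted p under 0.05, 5 lay above the median and 1 below. Counts at an unadjusted p are given here and below without a share of all genes, so they do not show whether the receptors stand out. With adjustment and any size of difference, the 5 above remained, Csf1r, Flt1, Kdr, Kit and Pdgfra, where 32% of all genes lay above and 34.2% below. Only Csf1r of these 5 remained without replicate 3 and in the fit without the replicate block, in which the adjusted p of Pdgfra, Kit, Flt1 and Kdr was 0.107 to 0.29. Without replicate 1, Pdgfra and Kit were lost. Without replicate 2 all 5 remained, and Pdgfrb (0.43, adjusted p = 0.0117) and Flt4 (0.50, adjusted p = 0.013) were added. Pdgfra was also lost with edgeR (adjusted p = 0.0512) and in limma with genes under a mean of 100 normalized reads left out (adjusted p = 0.0603).

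Kit was the steadiest receptor of the mesoderm, with 810, 836 and 865 normalized RNA-Seq reads, 1183, 1120 and 1301 RPFs, and a log2 TE of 0.48 ± 0.09 (SD, n = 3; adjusted p = 0.0242). Pdgfra had 10253, 9845 and 10816 reads in RNA-Seq and 17151, 10764 and 17266 in Ribo-Seq. Replicate 2 was low in RPFs alone, and log2 TE was 0.48 ± 0.34 (adjusted p = 0.0477). Pdgfrb mRNA had 5463, 8415 and 6791 reads and its RPFs 8068, 6402 and 8915. Replicate 2 was highest in mRNA and lowest in RPFs, which left its log2 TE at 0.15 ± 0.51 (adjusted p = 0.55).

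Csf1r had the highest TE of the 9 in the mesoderm and was the most uneven. Its mRNA was 697, 964 and 964 normalized reads, while its RPFs were 1227, 4854 and 1800. Log2 TE was 0.78, 2.30 and 0.87 in the 3 replicates, and replicate 2 alone lay past 3-fold. The fitted value was 1.31 ± 0.27 (SE, 2.49-fold, adjusted p = 0.00138). It was 0.81 without replicate 2, and 1.60, past the TE-high threshold, without replicate 1. The macrophage markers moved with it. All 11 of those found had their highest RPF level in replicate 2, where 38.4% of all genes did, and summed to 4746, 15701 and 6556 RPFs against 1962, 2265 and 2315 in RNA-Seq. Of the 11 markers, 8 were TE-high, with a median log2 TE of 1.79, a share that the naming of genes by the study's calls can raise. The red blood cell marker Hba-x was also highest in the Ribo-Seq of replicate 2, with 84280 normalized reads against 9340 and 18361, and in its RNA-Seq. The part of blood cells in the Csf1r result was not tested.

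The 5 vascular receptors shared a pattern over the replicates rather than a level of TE, and most of the other receptors had parts of it. All 5 were lowest in replicate 1 in both library types, as 46.5% of all genes were in RNA-Seq and 37.9% in Ribo-Seq. Csf1r was also lowest there in both library types, and Kit and Pdgfrb in RNA-Seq only. Tie1 had 427, 1436 and 1185 normalized RNA-Seq reads and 326, 915 and 1147 RPFs. Flt4 had 161, 632 and 457 in RNA-Seq and 232, 641 and 682 in Ribo-Seq. For both genes replicate 1 lay far below the other replicates in each library type. Kdr had 570, 1131 and 942 reads of mRNA and 763, 1257 and 2179 RPFs, and Flt1 had 142, 238 and 238 and 201, 297 and 587. Both stood highest in Ribo-Seq replicate 3, as the other 3 vascular receptors, Pdgfra, Pdgfrb, Kit and 22.4% of all genes did. Tek varied little in mRNA, with 217, 280 and 265 normalized reads, and had 142, 180 and 260 RPFs. The 6 endothelial markers summed to 1187, 2138 and 2024 in RNA-Seq and 1472, 3800 and 3864 in Ribo-Seq, with the lowest value in replicate 1 for 5 of 6 in mRNA and 6 of 6 in RPFs, beside the same shares of all genes. In Ribo-Seq, however, 4 of the 6 markers were highest in replicate 2 and 2 in replicate 3, unlike the receptors. The part of the endothelial share of the sorted cells was not tested.

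**Figure D3:**
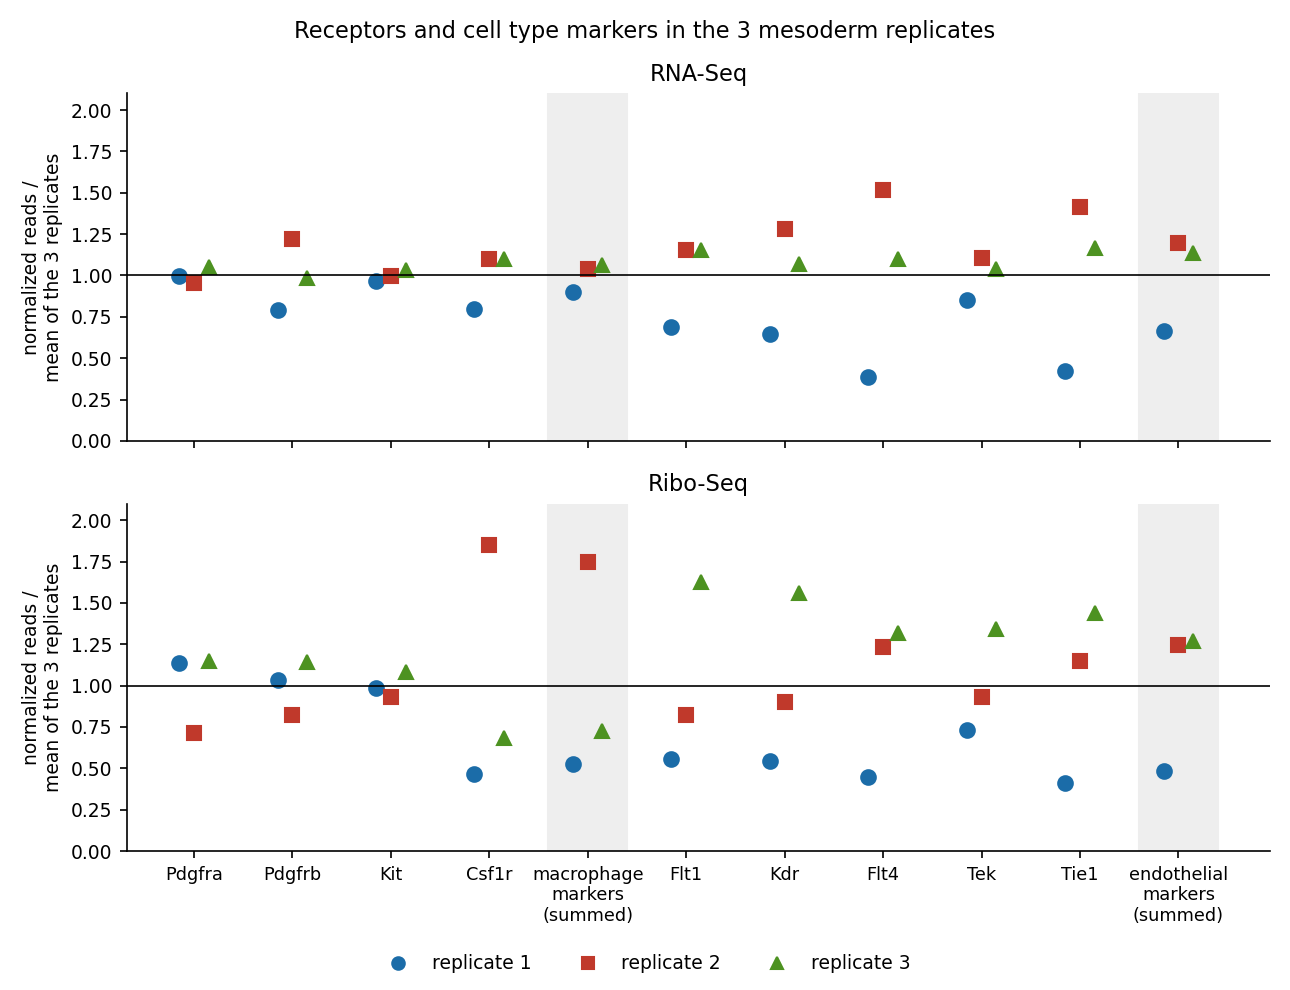
Normalized reads of each receptor in the mesoderm, divided by the mean of its 3 replicates, for RNA-Seq (top) and Ribo-Seq (bottom), with summed macrophage and endothelial markers on grey. Replicate 1 is lowest for the 5 vascular receptors and Csf1r as for the summed endothelial markers, and Csf1r RPFs are highest in replicate 2 as the macrophage markers are.

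Log2 TE in the mesoderm was 0.67 ± 0.52 (SD, n = 3) for Flt1, 0.56 ± 0.55 for Kdr and 0.34 ± 0.31 for Flt4. It was negative for the angiopoietin receptor pair, -0.46 ± 0.34 for Tek and -0.40 ± 0.30 for Tie1, below 0 in each of the 3 replicates but with adjusted p of 0.0688 and 0.0744. For Flt1 (adjusted p = 0.0206) and Kdr (adjusted p = 0.0382) it was above 0 in each replicate. Of all genes, 35.4% lay below Tek, 37.2% below Tie1 and 75.3% below Flt1.

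In NT no receptor was called in either direction by limma, edgeR or DESeq2, where limma called 4.3% of all genes TE-low and 0.427% TE-high. By limma no receptor passed an adjusted p of 0.05 at any size, against 10.7% of genes above and 15.6% below the median. At an unadjusted p under 0.05, 5 receptors lay above the median, with no share of all genes given for that p. DESeq2 gave Flt1 an adjusted p of 0.0454, and without replicate 3 Pdgfra, Flt1 and Kdr passed in limma, as Csf1r did without replicate 1 and Pdgfrb and Flt1 without the replicate block. Flt1 had the highest log2 TE, 0.76 ± 0.42 (SD, n = 3), followed by Csf1r with 0.71 ± 0.50, Pdgfra with 0.67 ± 0.54, Kdr with 0.62 ± 0.33 and Pdgfrb with 0.58 ± 0.13. The range of these 5 means was narrower than the SD of each of them except Pdgfrb. Tie1 and Tek were again the lowest, with -0.34 ± 0.32 and -0.32 ± 0.85. Tek was 0.63 in replicate 1 and -0.59 and -1.01 in the others, and the replicate with the lowest Tek mRNA, 208 normalized reads against 450 and 401, gave the high value.

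In FL, Csf1r was TE-high (1 of 9, where 6.28% of all genes were) and none of the 9 was TE-low by limma, edgeR or DESeq2, where limma called 13.4% of genes and 1 receptor lay below the median at an unadjusted p under 0.05. Log2 TE of Csf1r was 1.93, 1.99 and 1.33, with a fitted value of 1.75 ± 0.26 (SE, 3.37-fold, adjusted p = 0.00549), and between 1.62 and 1.95 without any 1 replicate. The 6 macrophage markers that could be named, of 12 listed, were TE-high in FL with a median of 2.32, a count that the naming by the study's calls can fix, and each was lowest in Ribo-Seq library 3 as Csf1r was. They summed to 3651, 4508 and 1932 RPFs against 580, 604 and 743 in RNA-Seq. At any size, Flt4 joined Csf1r above the median, with 0.94 ± 0.26 (adjusted p = 0.0209, and 0.076 and 0.263 without replicate 1 and 2), where 25.3% of genes lay above and 26.6% below.

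The other receptors split by library in FL. Log2 TE of Pdgfra was -1.19 and -1.08 in replicates 1 and 2 and 0.84 in replicate 3. Kit gave -1.05, -1.03 and 0.63, and Pdgfrb -0.80, -0.87 and 0.78. For all 3 genes the sign thus turned with replicate 3, whose Ribo-Seq library held 3.32, 2.95 and 3.64 times the mean RPF level of libraries 1 and 2 for Pdgfra, Pdgfrb and Kit. Tek, with RPFs of 111, 147 and 346, gave -2.12, -1.70 and 0.15. The fitted value of Tek was -1.22 ± 0.45 (SE, adjusted p = 0.0558, and 0.013 with DESeq2 and 0.0441 without the replicate block), and without replicate 3 it was -1.92 and TE-low. Without replicate 3, Pdgfra was at -1.15, Kit at -1.05, Tie1 at -0.88 and Pdgfrb at -0.85, all under 3-fold. Kdr moved from 0.33 to -0.20, Flt1 from 0.52 to 0.14 and Flt4 from 0.94 to 0.87.

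**Figure D4:**
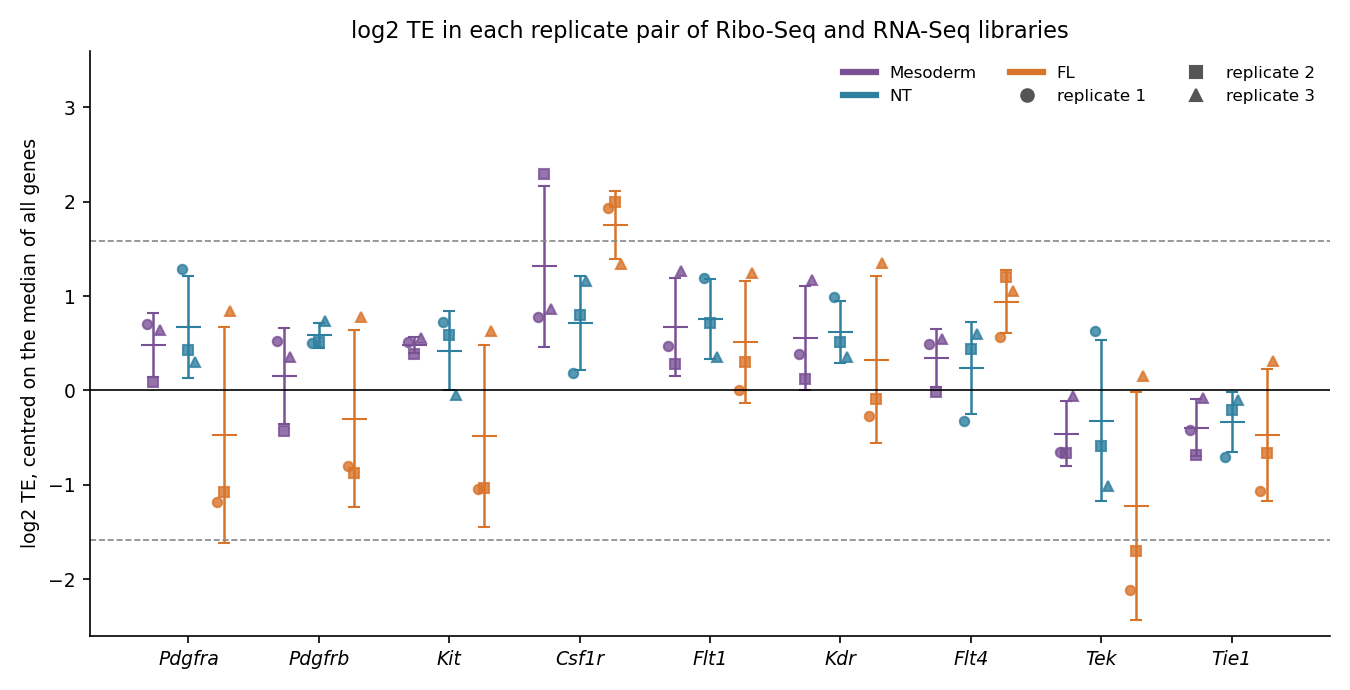
Log2 TE of each gene in the mesoderm, NT and FL, with the value of each replicate pair of libraries (points), the mean and the SD (bars). The solid line is the median gene and dashed lines are 3-fold from it. Csf1r lies highest in the mesoderm and in FL, Tek and Tie1 have negative means in all 3 tissues, and FL replicate 3 lies apart for Pdgfra, Pdgfrb, Kit and Tek.

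The difference in TE between FL and NT was tested as the interaction of library type and tissue. None of the 9 receptors passed an adjusted p under 0.2 with a 2-fold difference by limma, as 0.276% of all genes did with higher TE in NT and 0.125% with higher TE in FL. edgeR called 0 as well, DESeq2 called Csf1r, and 1 receptor had an unadjusted p under 0.05 in limma. Csf1r had the highest difference, 1.01 ± 0.38 (SE, adjusted p = 0.291), beside a median of 1.47 over the 6 macrophage markers. The naming by the study's calls can raise that median, and the part of the markers in the Csf1r value was not tested. Flt4 followed with 0.68 ± 0.33 and the other 7 were negative, from -0.16 ± 0.37 for Tie1 to -1.17 ± 0.55 for Pdgfra (adjusted p = 0.291).

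This outcome turned on the third Ribo-Seq libraries. Without FL replicate 3, higher TE in NT was called for Pdgfra (-1.83, adjusted p = 0.00426), Tek (-1.61), Kit (-1.49) and Pdgfrb (-1.45), and higher TE in FL for Csf1r (1.22, adjusted p = 0.0208). The same 5 receptors were called when the third Ribo-Seq library of both tissues was left out, an alternative chosen after seeing the data, with -1.80 for Pdgfra, -1.62 for Tek, -1.73 for Kit and -1.43 for Pdgfrb, and a higher value for Csf1r than without FL replicate 3. At the same time the number of genes called in the whole table rose from 31 with higher TE in NT and 14 in FL to 2167 and 1805 without FL replicate 3. Flt1, Kdr, Flt4 and Tie1 stayed under 2-fold in both.

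**Figure D5:**
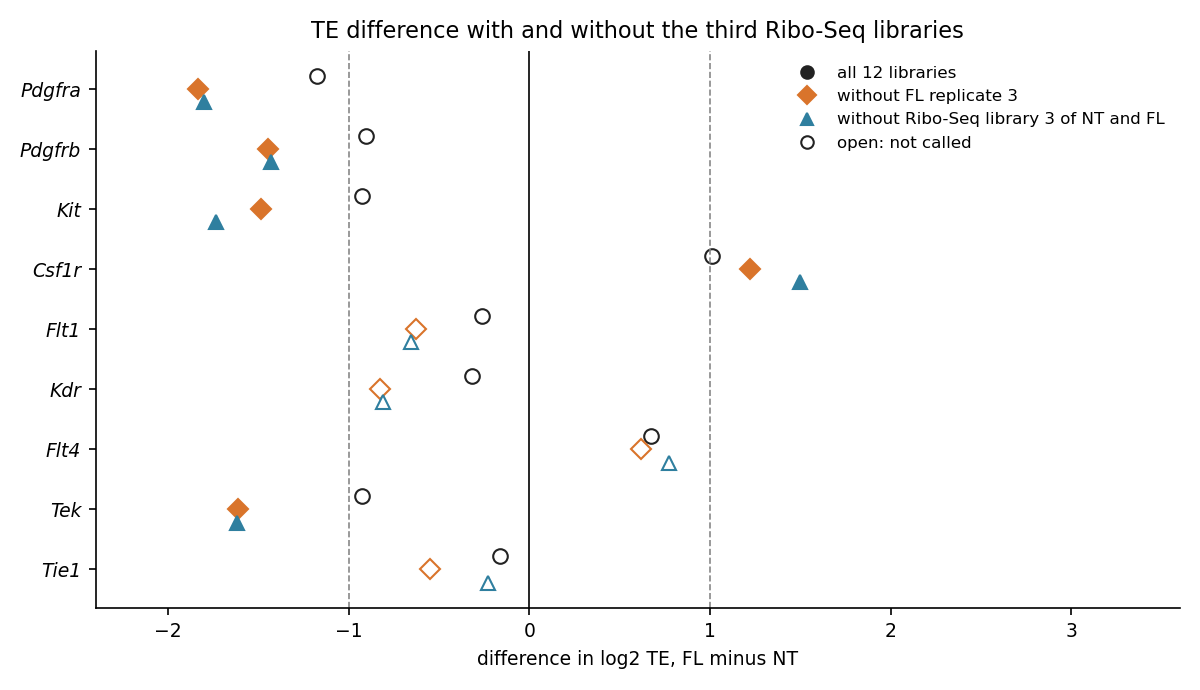
Difference in log2 TE, FL minus NT, with all 12 libraries (circles), without FL replicate 3 (diamonds) and without the third Ribo-Seq library of both tissues (triangles). Filled symbols passed the adjusted p of 0.2 and the 2-fold threshold (dashed lines). With all libraries no gene is called, and without the third libraries Pdgfra, Pdgfrb, Kit and Tek move left past the threshold and Csf1r moves right.

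Of 20 listed ligands, co-receptors and regulators of these receptors, 5 could be named in the mesoderm table and 6 in the NT and FL table, since most symbols come from tables of genes that the study called on these samples. Pdgfa, which encodes a ligand of PDGFRα, was higher in FL like its receptor. It had 352, 162 and 191 normalized RNA-Seq reads in NT and 808, 748 and 825 in FL, a log2 difference of 1.83 ± 0.32 (adjusted p = 0.000803). Its RPFs were 63.6, 93.5 and 115 in NT, against 752, 1096 and 649 in FL, a difference of 3.19 ± 0.32 (adjusted p = 4.78e-06). Thus the RPF difference was smaller than the mRNA difference for Pdgfra and larger for Pdgfa. By limma with all libraries the differences in TE did not pass (1.36 ± 0.46 for Pdgfa, adjusted p = 0.291). That of Pdgfa was called by DESeq2 (1.46, adjusted p = 0.112), without NT replicate 3 (1.65, adjusted p = 0.195) and without FL replicate 3 (1.55, adjusted p = 0.0415).

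Angpt1, the agonist of TIE2, Nrp1, the VEGF co-receptor, and Ptprb, the phosphatase that dephosphorylates TIE2, showed no called mRNA difference and fewer RPFs in FL. Their log2 differences in RPFs were -1.21 ± 0.30 for Angpt1 (adjusted p = 0.00607), -1.02 ± 0.29 for Nrp1 (adjusted p = 0.0117) and -1.28 ± 0.36 for Ptprb (adjusted p = 0.0124). The call of Nrp1 was lost with edgeR, with DESeq2 and without NT replicate 3, FL replicate 1 or FL replicate 2, and that of Ptprb without FL replicate 1 or FL replicate 2. The TE differences of these genes did not pass by limma with all libraries. Without FL replicate 3, higher TE in NT was called for Ptprb (-1.85, adjusted p = 0.00722), Nrp1 (-1.55, adjusted p = 0.00787) and Angpt1 (-1.26, adjusted p = 0.0675). For Nrp1 and Angpt1 it was also called with DESeq2 and without NT replicate 3. Socs1, a feedback inhibitor of cytokine signalling, was higher in FL in mRNA (2.25 ± 0.49, adjusted p = 0.00371) and in RPFs (3.48 ± 0.49, adjusted p = 8.71e-05), from 6 to 22 reads in an NT Ribo-Seq library. Sh2b3, which encodes the adaptor LNK that restrains KIT and other receptors, was TE-low in the mesoderm, with 515, 1120 and 1068 normalized RNA-Seq reads and 87.9, 147 and 111 RPFs. Its log2 TE was -2.94 ± 0.20 there (SE, adjusted p = 2.35e-06), -2.31 ± 0.30 in FL (TE-low, adjusted p = 0.00549) and -1.56 ± 0.30 in NT, under 3-fold. In NT it was TE-low at -1.70 without replicate 2 and at -1.71 without replicate 3. The FL minus NT difference in its TE did not pass by limma with all libraries, and was -1.08 (adjusted p = 0.0516) and called without FL replicate 3.

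Below the receptors, 25 of 25 listed genes of the RAS-MAPK and PI3K cascades were found. In the mesoderm 6 of 25 were TE-low and 0 TE-high, where 10.9% and 1.17% of all genes were. The median log2 TE was -0.82, beside 0.48 for the 9 receptors. The 6 were Sos2, an exchange factor for RAS (-2.15), the phospholipases Plcg1 (-2.04) and Plcg2 (-1.89), the PI3K catalytic subunit genes Pik3cd (-2.05) and Pik3ca (-1.75), and the regulatory subunit gene Pik3r2 (-1.67). In FL 5 of 25 were TE-low, where 13.4% of all genes were: Pik3cd (-3.04), Plcg1 (-2.44), Sos2 (-2.28), Pik3ca (-2.27) and Pik3cb (-2.18). Without FL replicate 3, 7 were TE-low, Sos1 and Plcg2 being added, and 1 was TE-high, the adaptor gene Grb2 (1.98). In NT none was called by limma at 3-fold, and the list's median was -0.62. There 9 lay below and 2 above the median gene at an adjusted p under 0.05, as 15.6% and 10.7% of all genes did. Between the tissues, Pik3cd had less mRNA in FL, with a log2 difference of -2.22. In RPFs, Pik3cd (-3.88), Pik3cb (-2.19), Pik3r3 (-1.75), Sos2 (-1.44) and Pik3r1 (-1.21) were lower in FL, as they were without FL replicate 3, when Plcg1 (-2.03), Pik3ca (-1.76) and Sos1 (-1.47) also passed.

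The other receptor tyrosine kinases of the study's list, 37 in the mesoderm table and 30 in the NT and FL table, had a lower median log2 TE than these 9 in each tissue: -0.56 against 0.48 in the mesoderm, -0.08 against 0.58 in NT and -0.72 against -0.30 in FL, or -1.09 against -0.85 in FL without replicate 3. Of them 4, 1 and 3 were TE-low and none TE-high in the mesoderm, NT and FL, where 10.9%, 4.3% and 13.4% of all genes were TE-low. In mRNA, 14 of 30 were called higher in FL and 5 higher in NT, and in RPFs 11 and 8. Of all genes, 7.82% and 9.49% were so called in mRNA, and 14.9% and 17.8% in RPFs. Their RPF levels also moved with the third FL library, with 29 of 30 above both other libraries. These counts and medians are descriptions, and the difference between the lists was not tested.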

How the data were processed

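RNA-Seq and Ribo-Seq were measured in the mesoderm, NT and FL of E11.5 mouse embryos, in 18 libraries of 6 groups of 3. Per the paper and the submitters' processing notes, the authors trimmed adapters with cutadapt, mapped them with Bowtie2 onto mm10 transcripts, 1 canonical UCSC isoform a gene, and kept reads with a unique match. Reads falling in the coding sequence, leaving out 15 codons at its start and 5 at its end, were scaled with DESeq effective library sizes. The deposited signal values are these normalized reads. Dropping reads that map to several genes lowers genes with near-identical copies. Versions are not given in the sources used here.

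In every library 100.0% of values were whole multiples of the worth of 1 read, within 0.1 read, and gave whole reads for the count tests. TE in a tissue was fitted with limma 3.58.1 (R 4.3.3, variance trend) as the effect of library type on log2(normalized reads + 1), blocked by replicate number, which the study's model also used, and centred on its median over genes. FL minus NT in mRNA, in RPFs and in TE (the interaction) came from 1 fit of 12 libraries without a block. Calls were at an adjusted p under 0.05 and 3-fold for TE, 0.05 and 2-fold for mRNA and RPFs, and 0.2 and 2-fold for the TE difference, with Benjamini-Hochberg adjustment over all genes. A fold on this scale understates the change of low genes. edgeR 4.0.16 and DESeq2 1.42.0 on whole reads, pseudocounts of 0.5 and 8, a minimum mean of 100 normalized reads and leaving out replicates were alternatives. edgeR called 1312 TE-low and 146 TE-high genes in the mesoderm, 464 and 44 in NT and 1493 and 717 in FL. It called 1132 genes higher in NT and 820 in FL in mRNA, and 1789 and 1642 in RPFs. The models were tested on simulated reads. Those had a moderate spread shared by all genes and no library set apart. The test therefore does not cover libraries such as the third FL Ribo-Seq library.

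Symbols came from the study's supplementary tables, which name 3429 mesoderm genes and 3285 NT and FL genes. Positions, leaders and CDS lengths came from GENCODE (GRCm38), from the coding transcript with the longest CDS. Members, gene lists and markers (endothelium, macrophages, pericytes, red blood cells, neural cells, limb bud mesenchyme, somites, epithelium) were chosen with earlier results of these data known. The genes named are the 9 members, the listed ligands and regulators that could be named, cascade genes that passed a call (some are not reported here), markers and, for each member, the gene most like it.

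Per the paper, sorted mesoderm cells and dissociated NT cells were split between RNA-Seq and Ribo-Seq, while NT of some experiments were frozen instead. No split is stated for FL. That replicate numbers pair the library types is thus an assumption in FL, and in NT it holds only where cells were dissociated. Deviations from group means correlated across genes, for numbers 1, 2 and 3, at 0.74, 0.58 and 0.57 in the mesoderm, -0.28, 0.35 and 0.05 in NT and 0.05, 0.12 and 0.09 in FL. P-values measure the spread between these samples. In the fit of 12 libraries that spread is taken over RNA-Seq and Ribo-Seq together, also for the mRNA differences.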

Additional observations from a re-analysis of the deposited data

How the results depend on the processing

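Of 594 values of single receptors under alternatives, 560 kept their direction and side of the threshold, which includes the size of change, 8 lost a call, 20 gained one and 6 reversed, all 6 when a replicate was left out. In those settings log2 TE ran from -0.021 to 0.43 for Pdgfrb in the mesoderm, -0.81 to 0.021 for Tek in NT and -0.20 to 0.62 for Kdr in FL. The mRNA difference ran from -0.031 to 0.52 for Tek and -0.29 to 0.00197 for Tie1, and the TE difference from -0.55 to 0.13 for Tie1. Among ligands and regulators, FL TE ran from -0.24 to 0.21 for Pdgfa, -0.12 to 0.10 for Angpt1, -0.48 to 0.18 for Nrp1 and -0.61 to 0.011 for Socs1. The mRNA difference ran from -0.37 to 0.24 for Angpt1, -0.084 to 0.28 for Nrp1 and -0.21 to 0.23 for Ptprb. With genes under a mean of 100 normalized reads left out, FL TE was -0.0026 for Pdgfa and -0.027 for Angpt1, and the Ptprb mRNA difference was -0.048 with edgeR and -0.026 with DESeq2. Leaving out a replicate gave 72 to 271 TE-high genes in the mesoderm, 37 to 88 in NT and 387 to 1408 in FL. It gave 0 to 1 receptors TE-high in the mesoderm, 0 to 1 TE-low in FL and 0 to 1 higher in NT in mRNA. In RPFs 1 to 2 receptors were then higher in NT and 1 to 3 in FL. For the TE difference it gave 0 to 2167 genes and 0 to 4 receptors higher in NT, and 0 to 1805 genes and 0 to 1 receptors higher in FL, from 31 and 14 genes with all libraries. Without NT replicate 3 it was 1235 and 1000 genes. Without the third Ribo-Seq library of both tissues, 2702 genes had more RPFs in FL, 3 receptors had more RPFs in NT, and the TE difference was called for 2498 genes and 4 receptors higher in NT and 2293 genes and 1 receptor in FL. DESeq2 called the TE difference for 286 and 570 genes, and 1 receptor higher in FL. With the replicate number as a block across NT and FL, 5 and 1 genes were called, 1032 and 821 in mRNA and 1866 and 1604 in RPFs. Without the block within tissues, TE-low and TE-high genes numbered 1296 and 132 in the mesoderm, 462 and 46 in NT and 1483 and 704 in FL. Deviations of same-numbered NT and FL libraries correlated at -0.02, -0.22 and -0.24 in RNA-Seq and -0.29, -0.50 and -0.58 in Ribo-Seq. Both tissues came from the same embryos, and whether equal numbers mark the same ones is not given in the sources used here. The cause of these changes was not tested. With 3 replicates a group and receptors held by 69 reads or more, the spread between libraries limits the calls.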

Other observations

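For each receptor the most similar of 2970 other named genes, each averaging 100 normalized reads or more in both tables, was found by the mean of 2 Pearson correlations, one over the 12 NT and FL libraries and one over the 6 mesoderm libraries, on log2(normalized reads + 1). Libraries of both types enter, so shared RNA-Seq and Ribo-Seq differences and library effects count in it, and no p is given. Flt1 and Kdr, encoding VEGF receptors 1 and 2, were each other's most similar gene, with a mean r of 0.961. Pdgfra was most like Ror1 (0.965) and Pdgfrb most like Ror2 (0.920), both receptor tyrosine kinase genes of the ROR family. Csf1r was most like Atox1, a copper chaperone gene, with the highest mean r of the 9, 0.983, and Kit most like Jam2, a junctional adhesion molecule gene (0.957). Flt4 (Phlda3, 0.904), Tie1 (Plcd1, 0.895) and Tek (Atp2b4, 0.865) had the least similar nearest genes.

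Among marker lists not described above, the somite marker Tcf15 had 520, 837 and 750 normalized RNA-Seq reads in the mesoderm, and 53.0 to 436 in NT against 83.2 to 143 in FL. The NT value of 436 was that of RNA-Seq library 1. The epithelial marker Epcam likewise had 659 normalized reads in NT RNA-Seq library 1 against 96.0 and 107 in the others, and 537 to 690 in FL. The red blood cell markers Hba-x and Hba-a2 summed to 11036 to 19713 in NT RNA-Seq and 13319 to 23800 in FL RNA-Seq.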
